A study of Mus musculus with 16 samples.

Results

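Cytosolic ribosomal protein genes were taken from RNA-seq of whole mouse hypothalamus as the protein-coding genes named Rpl or Rps plus a number, with *Rplp0*, *Rplp1*, *Rplp2* and *Rpsa*. Pseudogenes and the *Rps6k* kinases were left out. The symbol rule was met by 83 protein-coding genes. In 80 of these, the read count scaled to library size (CPM) was above 1 in 1 or more libraries, and they formed the set described here, 48 of the large and 32 of the small ribosomal subunit, among 15808 genes tested and 55401 in the tables. The other 3 were *Rpl3l*, *Rpl39l* and *Rpl10l*. The hypothalamus came from 16 male C57BL/6 mice aged 3 months, 1 library each, in 4 groups of 4: WT at ZT1, WT at ZT13, ASIC1a-/- at ZT1 and ASIC1a-/- at ZT13, where ZT (Zeitgeber time) is the number of hours after lights on. ASIC1a is a proton-gated sodium channel of neurons. ASIC1a-/- mice lack it in the whole body throughout life and were bred with the WT mice from heterozygous parents.

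The ribosome translates mRNA into protein. Its small subunit reads the codons and its large subunit joins the amino acids. Each subunit is a folded ribosomal RNA dressed with ribosomal proteins, most of them small and basic, and most present as a single copy per ribosome. Their mRNAs are among the most abundant of any cell and typically begin with a terminal oligopyrimidine (TOP) tract, through which mTOR signalling controls their translation rather than their level. Several proteins also act off the ribosome, such as *Rpl5* and *Rpl11*, whose products hold back the p53 regulator MDM2. Few are encoded by more than 1 active gene in mice, but the genome holds many retrotransposed copies, most of them pseudogenes.

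The sequences printed here show what sets these genes apart and what limits their measurement. The coding sequence of *Rpl41* (chr10:128548114-128549305, minus strand, GRCm38), which encodes the smallest ribosomal protein, has 78 bases and is shown whole because a gene of that size receives few reads per molecule.
Rpl41: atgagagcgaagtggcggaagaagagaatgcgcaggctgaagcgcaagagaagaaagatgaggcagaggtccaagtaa

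*Rps27* (chr3:90212522-90213651, minus strand) and its paralog *Rps27l* (chr9:66946086-66949516, plus strand) both have a coding sequence of 255 bases. They are shown in full, with the 61 positions at which they differ in capitals, because reads from this pair can be told apart along the whole length.
Rps27: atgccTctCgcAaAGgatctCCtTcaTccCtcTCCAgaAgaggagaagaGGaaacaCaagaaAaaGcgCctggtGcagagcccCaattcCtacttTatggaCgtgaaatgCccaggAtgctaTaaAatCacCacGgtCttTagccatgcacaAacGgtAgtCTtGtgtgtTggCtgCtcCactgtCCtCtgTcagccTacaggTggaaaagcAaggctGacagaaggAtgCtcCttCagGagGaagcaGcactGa
Rps27l: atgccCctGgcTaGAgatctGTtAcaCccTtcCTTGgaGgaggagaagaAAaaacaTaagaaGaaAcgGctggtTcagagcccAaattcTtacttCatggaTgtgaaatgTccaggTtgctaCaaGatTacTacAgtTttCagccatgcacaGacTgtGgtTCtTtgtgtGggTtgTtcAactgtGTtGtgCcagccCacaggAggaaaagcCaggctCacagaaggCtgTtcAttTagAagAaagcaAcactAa

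*Rpl11* (chr4:136028265-136053428, minus strand) stands for the opposite case. Its processed pseudogene *Gm10288* (chr3:146838811-146839347, minus strand) differs at 1 of the 537 coding positions. Bases 56 to 115 of both coding sequences are shown with that position in capitals. A read that lies within the coding sequence and does not cover it fits both genes equally well on its own.
Rpl11: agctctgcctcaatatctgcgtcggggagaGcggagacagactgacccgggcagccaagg
Gm10288: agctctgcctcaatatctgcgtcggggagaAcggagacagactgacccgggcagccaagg

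The TOP tract was looked for at the annotated starts of RefSeq (GRCm38.p6), of which 60 of the 80 genes have an entry. A start with C followed by 4 bases that are each C or T was found in 13 of these 60 genes (21.7%), against 3.01% of the 27025 genes with an entry and 2.98% of the 11657 tested genes among them. The match needs a start annotated to the exact base, and annotations differ. For *Rpl14*, the run printed below does not reach the gene start at 120571444 in the GENCODE annotation. A gene without the match is thus not shown to lack a TOP tract. The 13 were *Rpl14*, *Rpl15*, *Rpl28*, *Rpl35*, *Rpl35a*, *Rpl38*, *Rplp2*, *Rps6*, *Rps10*, *Rps15a*, *Rps18*, *Rps21* and *Rps27*. Starts are given for 4 of them and for 3 genes without the match, *Rps27l*, *Rplp0* and *Rpl7l1*, on which results turn. Each run has 15 bases before and 15 bases from the annotated start, with the first 5 bases from the start in capitals, and the region on GRCm38.p6 is given with its strand.
Rps27 (chr3:90213634-90213663, minus strand): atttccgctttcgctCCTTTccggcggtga
Rpl14 (chr9:120571502-120571531, plus strand): gggcgggccctctctCTTCTcgctgagcgc
Rpl15 (chr14:18270972-18271001, minus strand): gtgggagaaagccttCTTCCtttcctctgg
Rpl28 (chr7:4792950-4792979, plus strand): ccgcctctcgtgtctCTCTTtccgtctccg
Rps27l (chr9:66946071-66946100, plus strand): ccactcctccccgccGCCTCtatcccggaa
Rplp0 (chr5:115559452-115559481, plus strand): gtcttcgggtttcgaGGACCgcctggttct
Rpl7l1 (chr17:46782642-46782671, minus strand): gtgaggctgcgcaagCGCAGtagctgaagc

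Within the 300 bases from 250 before to 50 after the start, the letters CCGGAAG, the core bound by ETS factors, occurred on either strand in 25 of the 60 genes (41.7%), against 9.93% of all entries and 18.1% of the tested genes. The letters CTCTTTC, a pyrimidine run like that of TOP starts, occurred on either strand in 18 of the 60 genes, against 9.28% and 8.85%. TATAAA, the letters of the TATA box, occurred on either strand anywhere in the window in 7 (11.7%), against 15.7% and 8.90%. None of these motifs contains another. One match of each is shown in capitals, in the genes on which results turn where they hold one. A match is a description of the letters and does not show that a factor binds or that TATAAA acts as a TATA box. The TATAAA shown for *Rplp0* lies after the annotated start printed above.
Rps27l, CCGGAAG (chr9:66946084-66946113, plus strand): ccgcctctatcCCGGAAGttgctgaggggc
Rpl35, CTCTTTC (chr2:39005113-39005142, minus strand): cccgccctttcCTCTTTCtctcgaaccagg
Rplp0, TATAAA (chr5:115559472-115559501, plus strand): gcctggttctccTATAAAaggcacacgcgg

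Levels between genes are compared in TPM, which divides by transcript length. The 80 genes summed to 37791 to 41183 TPM per library (median 39688) and took 1.06% to 1.18% of the expected counts. The median gene had a mean of 514 TPM, against 18.04 TPM for the median of all genes tested, and 75 of the 80 exceeded 100 TPM. The median was 405 TPM for the large and 525 TPM for the small subunit genes. *Rpl13a*, whose protein also takes part in translational control off the ribosome, was highest with 1135 ± 48.4 TPM (SD over 16 libraries, range 1028 to 1190.0). *Rpl3*, whose protein reaches to the peptidyl transferase centre, followed with 1100 ± 28.7 TPM (1044 to 1141). Next were *Rps15* with 1071 ± 33.4 TPM (1014 to 1133), *Rpl26* with 1016 ± 27.1 TPM (968 to 1066) and *Rplp1* of the stalk with 952 ± 36.9 TPM (909 to 1009). *Rpl41* was close behind with 939.9 ± 35.8 TPM (875 to 997). It received 147 CPM over an effective transcript length of 302 bases, where the median of the 80 genes was 477.

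**Figure D1:**
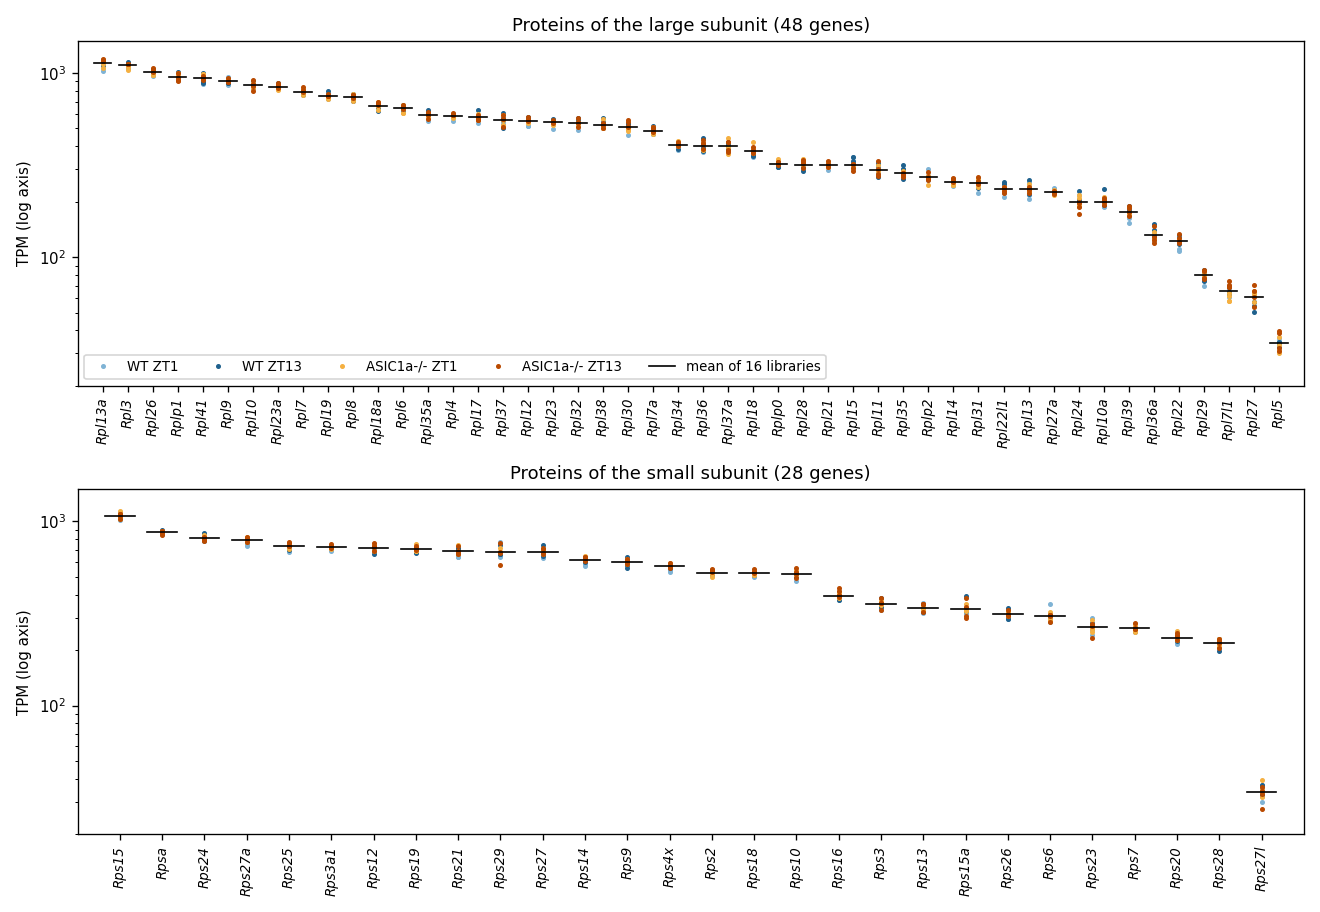
TPM of ribosomal protein genes on a log axis, ordered by mean, for the 48 large subunit genes (top) and 28 of the small subunit genes (bottom). Dots are the 16 libraries, coloured by group, and dashes their mean. Most genes lie between 200 and 1200 TPM, and *Rps27l* and *Rpl5*, at 33.9 and 34.1 TPM, are lowest.

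The order was set by small steps. Of the 79 pairs of neighbours in the order by TPM, 76 had ranges over the 16 libraries that overlapped. The 3 steps without overlap were at the low end, between *Rpl39* (176 TPM) and *Rpl36a* (132 TPM), between *Rpl22* (123 TPM) and *Rpl29* (79.7 TPM), and between *Rpl27* (60.5 TPM) and *Rpl5*. The 5 lowest genes were *Rpl29* with 79.7 ± 4.75 TPM (69.4 to 85.3), *Rpl7l1* with 65.2 ± 4.77 TPM (57.7 to 74.6), *Rpl27* with 60.5 ± 5.39 TPM (50.6 to 70.5), *Rpl5* with 34.1 ± 2.68 TPM (30.3 to 39.6) and *Rps27l* with 33.9 ± 2.96 TPM (27.4 to 39.7). *Rpl7l1* and *Rps27l* are paralogs, whereas *Rpl5* and *Rpl27* encode core proteins of the large subunit.

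The low values of *Rpl5* and *Rpl27* went with high values of their copies. Other annotated genes with at least 95% identity over at least 80% of the coding sequence were found for 76 of the 80 genes, 572 copies in all, 554 of them pseudogenes. RSEM divides a read that fits several genes between them, and 12.2% of the counts of these genes and their copies together went to the copies. For *Rpl5* the copies took 86.1%, nearly all of it *Gm15500* on chromosome 7, which is identical to *Rpl5* over its coding sequence and had a mean count of 5640.4. For *Rpl27* they took 83.3%, and the identical pseudogenes *Gm11518* and *Rpl27-ps3* each had the same mean count of 1366. The share was 66.1% for *Rps23*, which lies near the decoding centre, 66.0% for *Rps6*, the classic substrate of the S6 kinases, 61.5% for *Rpl31*, 53.2% for *Rpl21* and 51.8% for *Rpl11*. In all, 20 genes lost over 10% and 10 lost over 50% to copies. The values alone do not show how many of these reads came from the copies.

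**Figure D2:**
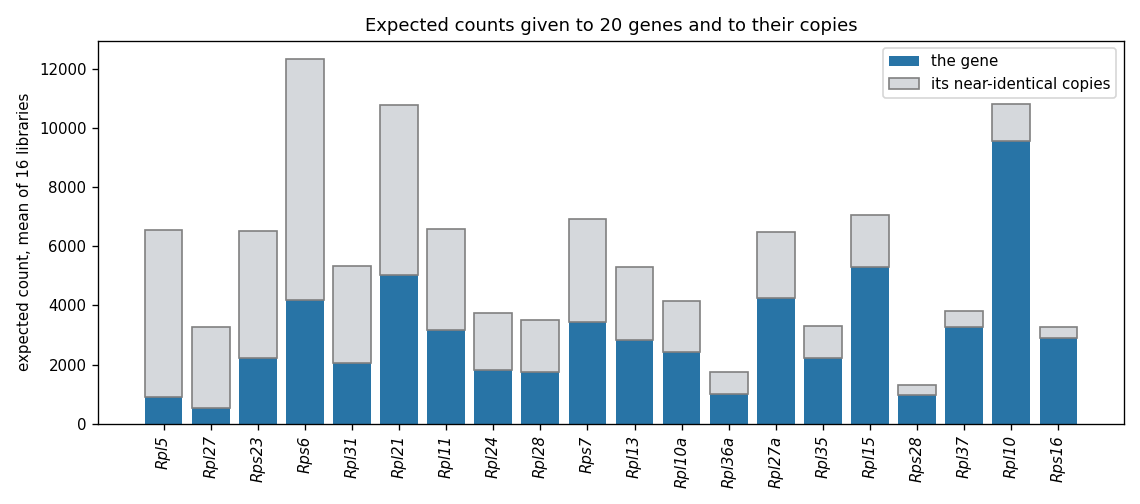
Mean expected count over 16 libraries for the 20 genes whose near-identical copies took over 10% of the joint count, in order of that share. Blue is the count given to the gene and grey, stacked on it, the count given to its copies; *Rpl5* and *Rpl27* at the left kept the smallest part.

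Gene and copies summed mostly varied less between mice than the gene alone. For these 20 genes, the SD between mice of a group had a median of 0.0782 on the log2 CPM scale for the gene alone and of 0.0540 for gene and copies summed, and it was smaller for the sum in 15 of the 20. A sum also holds more reads, and how much the split between gene and copy added to the spread was not tested. *Rpl10a*, which encodes the protein of the L1 stalk, is given as an example in single libraries. In WT mice at ZT13 it was at 67.9, 78.3, 65.6 and 64.5 CPM in replicates 1 to 4, where its copy was at 42.5, 41.9, 49.7 and 49.3 CPM. The gene was highest in the library in which the copy was lowest. This held in WT mice at ZT1 too, but in neither ASIC1a-/- group. Over all 80 genes the SD had a median of 0.0567, against 0.0807 for all genes tested.

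The paralogs differed in how much of their pair they made up. *Rps27l*, which is known as a p53 target, made up 4.74% ± 0.466 of the *Rps27* and *Rps27l* TPM (SD over 16 libraries, 3.91% to 5.55%), and the coding sequences were 76.1% identical. *Rpl7l1* made up 7.65% ± 0.498 of its pair with *Rpl7* (6.64% to 8.59%, identity 53.0%). *Rpl22l1* made up 65.7% ± 1.25 of its pair with *Rpl22* (62.8% to 68.1%, identity 66.9%), so that the paralog exceeded the core gene, with 235.4 ± 11.4 against 123 ± 6.73 TPM. The shares were compared between groups of 4 by 2-sided exact permutation tests, 12 in all, in which the smallest p possible is 0.0286. The *Rpl7l1* share was 8.06% ± 0.438 at ZT13 and 7.09% ± 0.342 at ZT1 in ASIC1a-/- mice (SD, n = 4, exact permutation p = 0.0286, adjusted p = 0.343). No other share had an exact permutation p under 0.0857, and none passed an adjusted p of 0.05.

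Tissue-restricted paralogs were near 0. *Rpl3l*, known from muscle, had 7.44 counts per library on average and *Rpl39l*, known from testis, 1.06, with counts in 16 and 9 of the 16 libraries. *Rpl10l*, also known from testis, had no count in any library. In 1 library alone this allows a mean of up to 3 counts, which covers counting error only. The 16 libraries together allow less. *Rps4l*, which GENCODE release 21 lists as a transcribed processed pseudogene and the rule therefore left out, was at 64.2 ± 5.93 TPM (51.5 to 76.6). Ribosomal proteins with other names were measured too. *Fau*, which encodes a ribosomal protein fused to a ubiquitin-like domain, was at 653 ± 24.7 TPM (602 to 685). *Rack1*, a scaffold on the small subunit, was at 282 ± 9.76 TPM (265.3 to 301), and *Rpl36al* at 2.48 ± 0.839 TPM, under the 1 CPM minimum.

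The genes lie on 19 chromosomes, 4 of them on X, and 30 carry 58 small nucleolar RNAs (snoRNAs) within their bounds on the same strand, which guide the modification of ribosomal RNA. *Rpl4* had 5 of these and *Rpl13a* had 4. Their coding sequences ran from 78 to 1260 bases (median 457.5).

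The 80 genes shifted together between libraries. The shift of a library is given as the median, over the 80 genes, of the difference of log2 CPM from the mean of the 16 libraries. It was 0.014, -0.033, -0.083 and -0.003 in WT replicates 1 to 4 at ZT1 and 0.002, 0.081, -0.026 and -0.030 in WT replicates 1 to 4 at ZT13. It was 0.047, 0.061, -0.017 and 0.003 in ASIC1a-/- replicates 1 to 4 at ZT1 and -0.014, 0.002, -0.026 and 0.032 at ZT13. WT replicate 3 at ZT1 was lowest and WT replicate 2 at ZT13 highest, and both subunits followed, with -0.086 and 0.085 for the large and -0.081 and 0.070 for the small subunit genes. All 4 groups overlapped. Their mean shift was -0.026 ± 0.042 in WT at ZT1, 0.007 ± 0.052 in WT at ZT13, 0.023 ± 0.037 in ASIC1a-/- at ZT1 and -0.001 ± 0.025 in ASIC1a-/- at ZT13 (SD, n = 4).

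**Figure D3:**
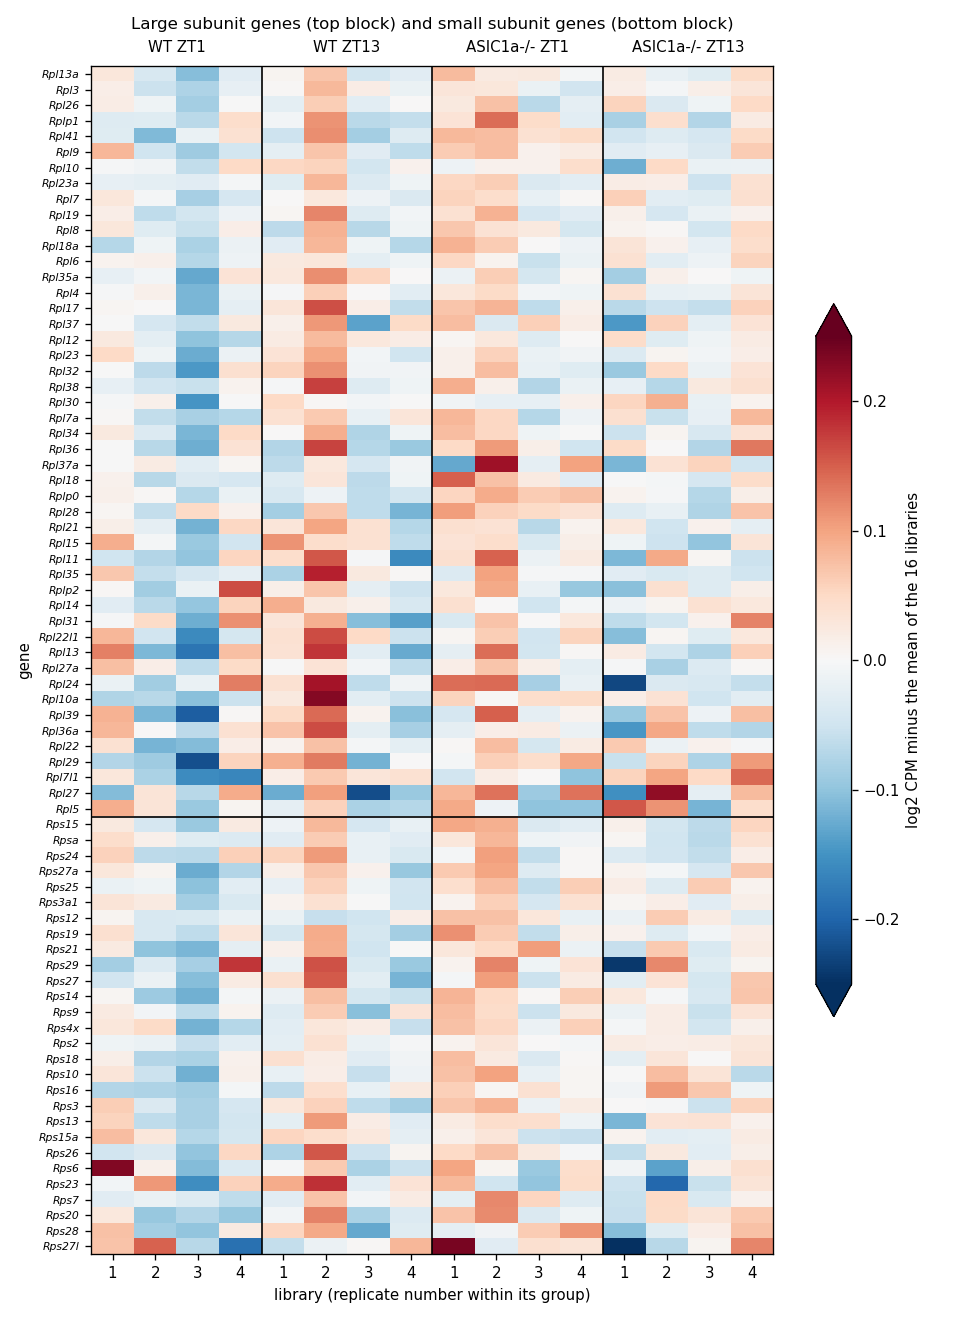
Difference of log2 CPM from the mean of the 16 libraries for 76 of the ribosomal protein genes (rows, large subunit above, small subunit below, each ordered by TPM) in each library (columns, by group). Red is higher and blue lower; the column of WT replicate 3 at ZT1 is blue and that of WT replicate 2 at ZT13 red over most rows.

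Other gene lists moved in the same libraries. The shift of 20 proteasome genes was -0.100 in WT replicate 3 at ZT1 and 0.085 in WT replicate 2 at ZT13, and that of 17 other translation genes of the TOP kind was -0.040 and 0.056. ASIC1a-/- replicate 2 at ZT1, the highest of its group, also had the highest share of mitochondrially encoded counts (4.64%, against 3.80% to 4.51% in the other libraries) and the highest shift of 5 oligodendrocyte markers (0.296). Marker lists of other tissues stood out in further libraries: 6 meningeal markers summed to 40.9 to 325 CPM and were highest in ASIC1a-/- replicate 4 at ZT1, where the shift of the 80 genes was 0.003, and 3 pituitary markers summed to 0.506 to 39.97 CPM. The pituitary shift was -2.51 to 0.028 in WT at ZT1 and 0.707 to 3.32 in WT at ZT13. Of 5 listed pituitary genes, these 3 exceeded 1 CPM in at least 1 library and were tested. In edgeR's test all 3 were higher at ZT13 in WT, against 7.51% of all genes. In ASIC1a-/- mice 0 passed, against 6.72% higher and 4.62% lower of all genes. A gene can enter through the group in which it is high, so the count of 3 carries no weight of its own. At ZT1, ASIC1a-/- against WT had a median log2 fold change of 2.35 for the 3 pituitary and 1.17 for the meningeal markers. The value was 0.420 for 2 choroid plexus, 0.112 for microglia and 0.111 for oligodendrocyte markers. It was 0.0016 for neuron and -0.11 for thalamus, striatum and cortex markers, and 0 of these genes passed. For the pituitary markers it was -2.74 at ZT13 and -5.30 in the interaction of genotype and time, and 0 passed there too. The part of these lists in the results was not tested. In bulk tissue, fewer cells of a type and less RNA per cell cannot be told apart.

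In WT mice, 1 gene of the set, the paralog *Rpl7l1*, passed the test between the morning and the start of the night. At ZT13 against ZT1, 1 of the 80 passed an adjusted p of 0.05 as higher (1.25%) and 0 as lower in edgeR's quasi-likelihood test, whereas of all genes tested 7.51% were higher and 5.76% lower. Fold changes on the log2 scale ran from -0.07 to 0.13 with a median of 0.03, and 66 of 80 lay above 0, against 49.2% of all genes. Before adjustment, 6 were higher (7.5%, against 14.2% of all genes) and 0 lower (12.9% of all genes) at p under 0.05. How far the set lay above 0 depended on single libraries. Of the 80, 52 lay above 0 without WT replicate 3 at ZT1 and 47 without WT replicate 2 at ZT13. The medians were then 0.012 and 0.0052, and the median stayed above 0 with each library left out. The median 95% interval reached 0.081 to either side of the estimate, and for all 80 genes it lay within 0.25 of 0.

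*Rpl7l1* (ENSMUSG00000063888, chr17:46773907-46782672) was the gene that passed. Replicates 1 to 4 were at 44.9, 41.7, 39.5 and 39.3 CPM at ZT1 and at 44.6, 46.1, 45.0 and 45.2 CPM at ZT13. The ZT13 libraries were close to each other, and 1 ZT1 library lay among them. The group means were 45.2 ± 0.635 at ZT13 and 41.3 ± 2.62 CPM at ZT1 (SD, n = 4). This gave 0.13 as log2 fold change (SE 0.0414, edgeR adjusted p = 0.0472). The call was marginal: over 30 alternative fits the adjusted p was 0.00754 to 0.477, and 11 of them called it. In ASIC1a-/- mice *Rpl7l1* was at 42.6, 44.6, 44.1 and 41.1 CPM at ZT1 and at 45.7, 47.2, 45.6 and 48.6 CPM at ZT13. Here the groups did not overlap. The log2 fold change was 0.12 (SE 0.0411) and edgeR's adjusted p was 0.0726. The change did not differ detectably between genotypes (interaction -0.01, 95% interval -0.133 to 0.112).

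The next genes by p in WT were *Rpl12* (0.08, SE 0.0277, edgeR adjusted p = 0.0730) and *Rpl10a* (0.12, SE 0.0459, edgeR adjusted p = 0.0836), both chosen after their values were seen. *Rpl10a* was the 1 gene of the 80 whose groups did not overlap as higher (1.25%, against 9.63% of all genes), and 0 did as lower (8.68% of all genes). It was at 63.4, 63.7, 62.1 and 64.4 CPM at ZT1. With its copy *Rpl10a-ps1* added, its log2 fold change was 0.04 (edgeR adjusted p = 0.425). Summing copies raised the value of other genes. *Rps23*, also chosen after its values were seen, went from 0.07 (edgeR adjusted p = 0.501) to 0.09 (edgeR adjusted p = 0.0515).

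**Figure D4:**
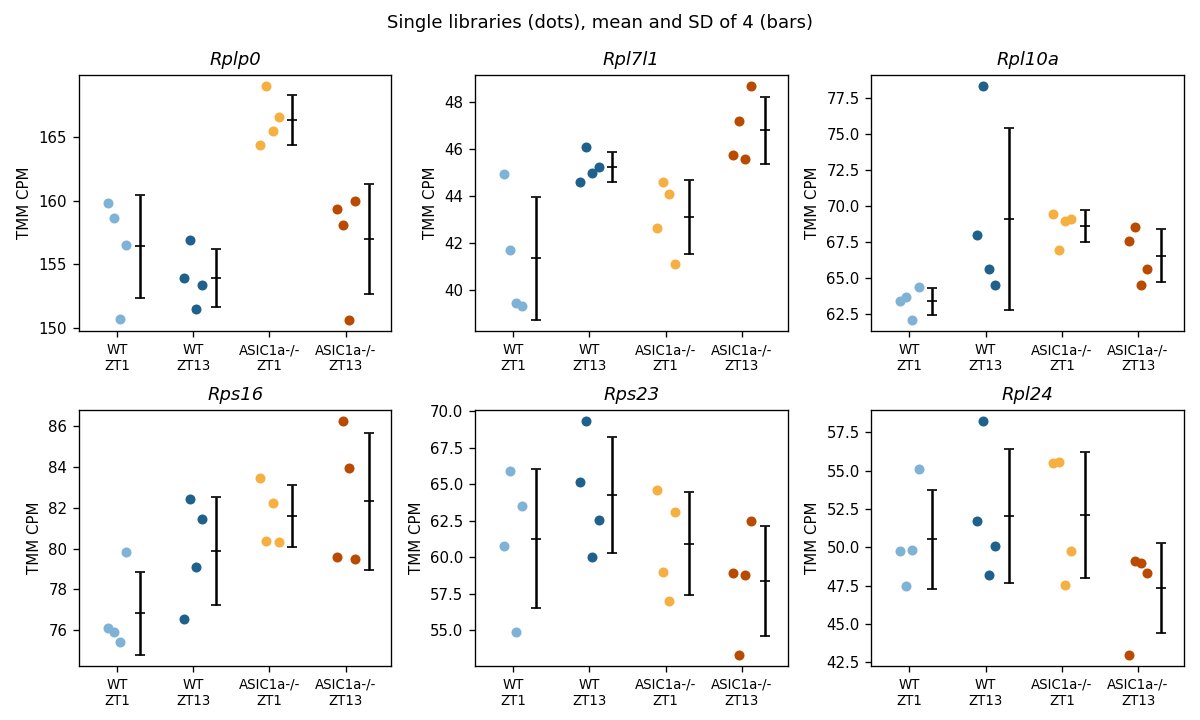
TMM-normalized CPM of 6 ribosomal protein genes in each library (dots) by group, with mean and SD of 4 mice (bars); axes do not start at 0. *Rplp0* is higher in all 4 ASIC1a-/- libraries at ZT1 than in any other library, and *Rpl7l1* is higher at ZT13 in both genotypes, with overlap in WT.

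In ASIC1a-/- mice, a single stalk gene was lower at night. At ZT13 against ZT1, 0 of the 80 were higher and 1 was lower (1.25%) in edgeR's test, against 6.72% higher and 4.62% lower of all genes tested. Of all genes, 1062 were called higher and 730 lower with TMM, 1302 and 563 with scaling to library size only, and 763 and 208 in log2(TPM + 1). Before adjustment at p under 0.05, 1 was higher (1.25%, against 14.0% of all genes) and 3 were lower (3.75%, against 12.3%). The count above 0 depended on scaling, which moved all genes as well. It was 12 of 80 with TMM (median -0.03, all genes -0.0064) and 26 with scaling to library size only (median -0.02, all genes 0.0082). In log2(TPM + 1) it was 47 (median 0.0083, all genes 0.030), where 9765 of the 15808 genes tested lay above 0. In each, the median of the set lay under that of all genes. Single libraries moved the count too, to 25 without ASIC1a-/- replicate 2 at ZT1, 18 without replicate 1 at ZT1, 19, 18 and 19 without replicates 1, 2 and 3 at ZT13 and 7 without replicate 3 at ZT1, with medians from -0.042 to -0.011. The log2 fold changes ran from -0.14 to 0.12.

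*Rplp0* (ENSMUSG00000067274, chr5:115559467-115563727), which encodes the scaffold of the stalk that recruits translation factors, was the gene that passed. In ASIC1a-/- mice replicates 1 to 4 were at 164.3, 168.9, 165.5 and 166.5 CPM at ZT1 and at 159.3, 158.1, 150.7 and 160.0 CPM at ZT13. The groups did not overlap. The means were 157 ± 4.30 at ZT13 and 166 ± 1.96 CPM at ZT1 (SD, n = 4). This gave -0.08 as log2 fold change (SE 0.0246, edgeR adjusted p = 0.0365). In WT mice it was at 159.8, 158.7, 150.7 and 156.5 CPM at ZT1 and at 153.9, 156.9, 151.5 and 153.4 CPM at ZT13, which overlapped, with a log2 fold change of -0.02 (SE 0.0247, edgeR adjusted p = 0.599). The difference between genotypes in this change did not pass (interaction -0.06, 95% interval -0.133 to 0.0132, edgeR adjusted p = 1.00). Over 30 alternative fits the adjusted p was 0.0164 to 0.407, and 17 of them called it. The acidic stalk proteins *Rplp1* and *Rplp2*, which bind to *Rplp0* protein, had log2 fold changes of -0.07 (SE 0.0422, edgeR adjusted p = 0.301) and -0.02 (SE 0.0514, edgeR adjusted p = 0.821).

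Groups did not overlap for 2 genes as lower (2.5%, against 6.88% of all genes), *Rplp0* among them, and for 1 as higher (1.25%, against 8.83%), *Rpl7l1*. *Rpl24*, which bridges both subunits, had the most negative fold change, -0.14 (SE 0.0649, edgeR adjusted p = 0.187), which was -0.02 with its copies summed. *Rpl24* was chosen after its values were seen.

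At ZT1, no ribosomal protein gene passed between genotypes, although most fold changes of ASIC1a-/- against WT mice lay above 0. In edgeR's test, 0 of 80 were higher and 0 lower, against 0% and 0.0127% of all genes, and DESeq2 and limma-voom also called 0. Of the 80, 74 lay above 0, against 50.1% of all genes, with a median log2 fold change of 0.05 and a range from -0.04 to 0.13. Before adjustment, 12 were higher at p under 0.05 (15%, against 3.88% of all genes) and 0 lower (3.12%). Groups did not overlap for 6 genes, all as higher (7.5%, against 1.42% of all genes, with 1.51% as lower), among them *Rplp0*, *Rpl10a*, *Rpl41*, *Rps2* and *Rps16*. Because the genes shift together between libraries, these counts are not 80 separate observations, and 66 of 80 lay above 0 without WT replicate 3 (median 0.03) and 68 without ASIC1a-/- replicate 2 (median 0.03).

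*Rplp0* had the smallest p of the 80 at ZT1. Its 4 ASIC1a-/- libraries, given above, lay above all other 12 libraries, and the means were 166 ± 1.96 in ASIC1a-/- and 156 ± 4.03 CPM in WT mice (log2 fold change 0.09, SE 0.0246, 95% interval 0.0366 to 0.140, edgeR adjusted p = 0.680). For *Rps16* the ASIC1a-/- libraries had 83.4, 80.4, 82.2 and 80.4 CPM and the WT libraries 76.1, 75.9, 75.4 and 79.8 CPM (0.09, SE 0.0329, edgeR adjusted p = 0.680). *Rpl41* was at 155.4, 155.0, 150.9 and 151.8 against 143.8, 136.1, 145.3 and 150.8 CPM, where the highest WT library lay just under the lowest ASIC1a-/- library (0.09, SE 0.0386, edgeR adjusted p = 0.680). *Rpl10a* was at 69.4, 67.0, 68.9 and 69.1 CPM in ASIC1a-/- mice (0.11, SE 0.0459, edgeR adjusted p = 0.680), and 0.06 with its copy added. The same fold change of *Fau* was 0.06 (SE 0.0398) and of *Rack1* 0.05 (SE 0.0306), with edgeR adjusted p of 0.797 and 0.749.

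At ZT13 no ribosomal protein gene passed between genotypes. In edgeR's test, 0 of 80 were higher and 0 lower, against 0.0822% and 0.0190% of all genes (0.101% in either direction), and DESeq2 and limma-voom also called 0. The median log2 fold change was -0.01, 35 of 80 lay above 0, and 0 genes had groups that did not overlap, against 1.29% of all genes in each direction. Before adjustment, *Rps23* alone was lower at p under 0.05 (1.25%, against 1.73% of all genes) and 0 genes were higher (2.01%). WT libraries had 65.2, 69.3, 60 and 62.6 CPM, and ASIC1a-/- libraries 58.9, 53.3, 58.8 and 62.5 CPM, which overlapped (-0.14, SE 0.0597, edgeR adjusted p = 1.00), and with its copies summed the value was -0.06. The count above 0 went both ways with single libraries, to 61 without WT replicate 2 and to 23 without ASIC1a-/- replicate 4, 25 without WT replicate 4 and 29 without WT replicate 3, and it was 43 in log2(TPM + 1). For 76 of the 80 genes the 95% interval lay within 0.25 of 0.

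**Figure D5:**
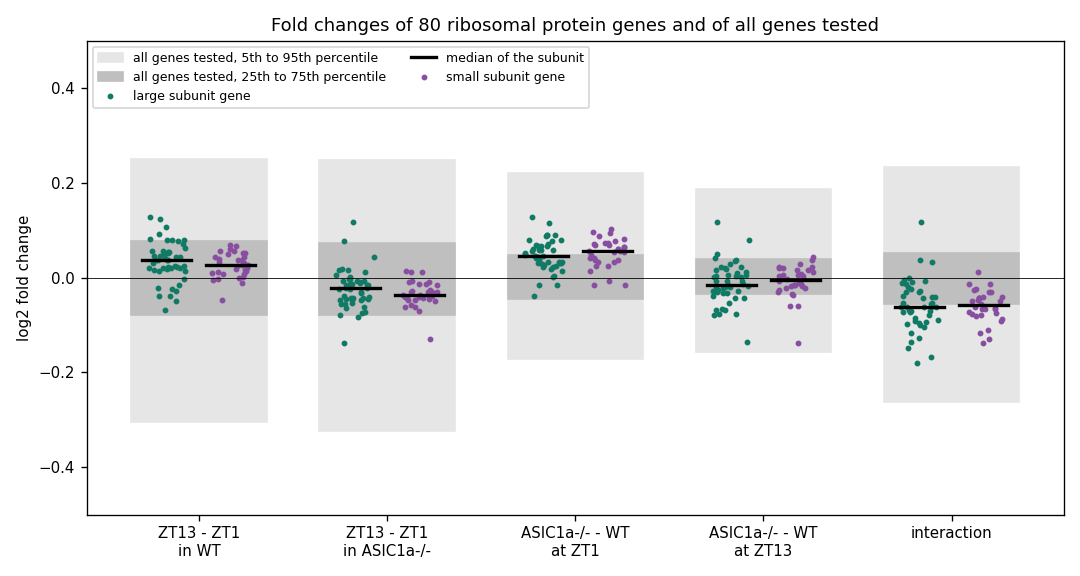
Log2 fold changes of the large (green) and small (purple) subunit genes in each comparison, with the median of each subunit (black line). Grey boxes give the 25th to 75th and the 5th to 95th percentile of all genes tested; all 80 ribosomal protein genes lie within the wider box in each comparison, and the medians of both subunits lie on the same side of 0.

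The interaction asks whether the change from ZT1 to ZT13 differed between genotypes. In edgeR's test, 0 of 80 were higher and 0 lower, against 0.0190% and 0% of all genes, and DESeq2 and limma-voom also called 0. The median was -0.06 on the log2 scale and 4 of 80 lay above 0, against 49.7% of all genes. The count was 2 to 12 with a single library left out and 0 with near-identical copies summed into the genes. In log2(TPM + 1) it was 26 (median -0.03), where 10317 of the 15808 genes tested lay above 0 (median 0.032). Before adjustment, 2 genes were lower at p under 0.05 (2.5%, against 1.92% of all genes) and 0 were higher (1.99%). *Rpl10a* was among the former (-0.17, SE 0.0647, edgeR adjusted p = 1.00). The median was -0.06 in the large and -0.06 in the small subunit genes. Without WT replicate 2 at ZT13 the median over all 80 was -0.03, and without WT replicate 3 at ZT1 it was -0.04. The interval of the interaction is wider, with a median of 0.114 to either side.

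The paralogs are given one by one. In ASIC1a-/- mice at ZT13 against ZT1, *Rpl7l1* had a log2 fold change of 0.12, *Rps27l* one of -0.13 (SE 0.0961, edgeR adjusted p = 0.420), *Rpl22l1* one of -0.05 (SE 0.0505, edgeR adjusted p = 0.610) and *Rps4l* one of -0.19 (SE 0.0657, edgeR adjusted p = 0.0696). *Rps27l* had only 223 counts per library on average, and its interval of -0.332 to 0.0726 was the widest of the 80. At ZT13, the CPM of *Rps4l* averaged 23.9 ± 2.15 in the ASIC1a-/- group and 28.4 ± 1.53 in the WT group (-0.25, SE 0.0656, edgeR adjusted p = 0.529).

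Single genes of ribosome biogenesis were higher at night. Of 25 such genes, 3 were higher and 0 lower at ZT13 against ZT1 in WT mice, against 7.51% and 5.76% of all genes. In ASIC1a-/- mice 5 were higher and 0 lower, against 6.72% and 4.62%. Whether the list differs from all genes was not tested. *Polr1a*, the largest subunit of RNA polymerase I, was at 63.7 ± 2.22 CPM at ZT13 and 56.7 ± 3.07 CPM at ZT1 in WT mice (log2 fold change 0.17, SE 0.0429, edgeR adjusted p = 0.0141) and at 64.5 ± 3.46 and 56.6 ± 1.32 CPM in ASIC1a-/- mice (0.19, SE 0.0427, edgeR adjusted p = 0.00848). *Utp20*, which processes the small subunit precursor, and *Nop58*, a core protein of box C/D snoRNA particles, were also higher in both genotypes (0.18 and 0.15 in WT, 0.18 and 0.15 in ASIC1a-/-). *Ddx21*, a nucleolar helicase, and *Polr1b*, a second subunit of RNA polymerase I, passed in ASIC1a-/- mice (0.15 and 0.23). No list gene passed in either genotype comparison or in the interaction.

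Of 17 other translation genes of the TOP kind, 3 were higher and 0 lower at ZT13 in WT mice, against 7.51% and 5.76% of all genes, and 0 in either direction in ASIC1a-/- mice, against 6.72% and 4.62%. The 3 were *Hnrnpa1* (0.11, SE 0.0257, edgeR adjusted p = 0.00780), *Eif4b*, an initiation factor (0.09, SE 0.0221, edgeR adjusted p = 0.0129), and *Pabpc1*, the cytoplasmic poly(A)-binding protein (0.12, SE 0.0304, edgeR adjusted p = 0.0140). Of 15 genes of mTOR signalling to translation, *Tsc1*, an inhibitor of mTOR complex 1, was higher (0.15 in WT, 0.20 in ASIC1a-/-) and *Akt2*, a kinase upstream of it, lower (-0.18 in WT, -0.18 in ASIC1a-/-), with edgeR adjusted p of 0.00152 and 0.00620 in WT and 0.000200 and 0.00760 in ASIC1a-/- mice. A count of 2 among 15 is near the share of all genes called in either direction, 13.3% in WT and 11.3% in ASIC1a-/- mice. Of 20 proteasome genes, which encode another large complex, 4 were higher in WT and 2 in ASIC1a-/- mice, against 7.51% and 6.72% of all genes, with 0 lower. Of 78 nuclear genes for mitochondrial ribosomal proteins, a list chosen after values were seen, 1 was higher and 2 were lower in WT, against 7.51% and 5.76% of all genes, and 0 in either direction in ASIC1a-/- mice, against 6.72% and 4.62%.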

How the data were processed

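Whole-hypothalamus RNA-seq of 16 mice was analysed. Tools listed in the submitters' processing notes are RSEM 1.2.31, HTSeq 0.9.1, STAR 2.5.3a and cutadapt 1.8; the builds listed there are mm9 and GRCm38. Per the file headers, the deposited values are RSEM expected counts per gene, not normalized and not whole for 85.2% of the values of these genes. TPM, also made by the authors, divides by effective length and sets the library to a fixed total. The deposited posterior SD of a count and the transcript lengths, in other units, were used only as descriptions. Totals were 34888522 to 42326259 per library, so precision was set mainly by the spread between mice.

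After rounding to whole numbers, the expected counts entered edgeR 4.0.16 (R 4.3.3; TMM, quasi-likelihood F test, 4 group means) on genes over 1 CPM in at least 1 library. Adjustment of p over these genes followed Benjamini and Hochberg. There were 12 residual and 5.83 prior degrees of freedom. CPM values are TMM-normalized, and log2 CPM used a prior count of 2. Annotation was GENCODE mouse release 21, promoters RefSeq, and copies were found with blastn 2.17.0. Scripts were tested on simulated data. The members and lists were chosen with earlier results of these data known. Full values went to called members, the 5 highest and lowest by TPM, paralogs, other-symbol proteins, members with an outlying library and up to 3 genes per list. The copy-summed fit was added after the data were seen. Alternatives were DESeq2 1.42.0, limma 3.58.1, other filters and scalings, TPM on a log2 scale, the replicate number as a block, and omission of each library. No library was counted as a duplicate, since the chi-square per degree of freedom between libraries of 1 group was 3.18 to 11.3. Nothing in the sources used here says which mice shared a litter. Results of single genes for 4 of the 80 members and 1 related gene are not reported here.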

Additional observations from a re-analysis of the deposited data

Results flagged for a closer look

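Among 316 groups of 4 libraries (76 genes and 3 summary shifts in each of 4 groups), 12 (3.80%) had a library far from the other 3 by Dixon's ratio, where chance flags about 1 in 20. WT replicate 2 at ZT13 was the far library in 5 of the 12, always high. In it, *Rpsa* was at 427 CPM (others 400.1 to 403), *Rpl12* at 177 (169.6 to 171), *Rpl38* at 65.02 (56.5 to 57.7) and *Rpl36* at 55.1 (46.0 to 46.7), and the median shift of the small subunit genes was 0.070 (others -0.030 to -0.015). ASIC1a-/- replicate 4 at ZT13 was high for *Rpl9* (289 CPM, others 269 to 272), *Rpl17* (195 CPM, others 179 to 181) and *Rpl41* (152 CPM, others 142 to 144). *Rpl30* was low in WT replicate 3 at ZT1 (91.1 CPM, others 101 to 102) and high in WT replicate 1 at ZT13 (104 CPM, others 100.5 to 101). *Rps16* was high in WT replicate 4 at ZT1 (79.8 CPM, others 75.4 to 76.1), and *Rpl24* low in ASIC1a-/- replicate 1 at ZT13 (43.0 CPM, others 48.3 to 49.1). The genes are not independent, since they shift together between libraries.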

How the results depend on the processing

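The single call in WT (*Rpl7l1*) and the single call in ASIC1a-/- mice (*Rplp0*) for ZT13 against ZT1 both lay near the threshold. The number of ribosomal protein genes called in WT was 0 with no low-count filter, with edgeR's own filter, in log2(TPM + 1) and log2(TPM + 0.1), with unrounded counts, with only the libraries compared, with a replicate block, at an unadjusted p under 0.005 and without the paralogs, 2 with scaling to library size only, and 0 to 2 with a library left out. In ASIC1a-/- mice it was 0 with no filter, with edgeR's own filter, with only the libraries compared and without ASIC1a-/- replicate 4 at ZT1 and replicate 2 at ZT13 together, and 0 to 2 with a library left out. At ZT1, 1 gene (*Rplp0*) passed an unadjusted p of 0.005. The other counts stayed within 1.5 times, though not always with the same gene, and the counts of 0 between genotypes and in the interaction otherwise stayed at 0. The cause was not tested.

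*Rpl7l1* in WT did not pass (edgeR adjusted p) without WT ZT1 replicate 2 (0.0787), 3 (0.131) or 4 (0.149), WT ZT13 replicate 1 (0.0715), 2 (0.105), 3 (0.0885) or 4 (0.0905), ASIC1a-/- ZT1 replicate 1 (0.0553) or 3 (0.0597), or ASIC1a-/- ZT13 replicate 1 (0.0520), 2 (0.0507) or 3 (0.0583). The call made without WT ZT13 replicate 4 was *Rpl10a* (0.0456). *Rplp0* in ASIC1a-/- mice did not pass with scaling to library size only (0.0689) or in log2(TPM + 1) (0.406) and log2(TPM + 0.1) (0.407), where *Rpl7l1* passed instead, nor without ASIC1a-/- ZT1 replicate 2 (0.0906), 3 (0.0551) or 4 (0.0731) or ASIC1a-/- ZT13 replicate 1 (0.0556), 2 (0.0547) or 3 (0.116). *Rpl7l1* passed in ASIC1a-/- mice with library size only (0.0408), in log2(TPM + 1) (0.0100) and log2(TPM + 0.1) (0.00993), and without WT ZT1 replicate 1 (0.0339).

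No pairing of mice by replicate number was seen: same-numbered libraries had correlations of -0.316 to 0.217, and 5 of 16 libraries correlated best with their own number. These values cannot show that the mice were unpaired, since a weak shared effect could go unseen. With the replicate block, 0 genes were called in WT and 1 in ASIC1a-/- mice. Of all genes, log2(TPM + 1) called 437 higher and 442 lower in WT (edgeR 1187 and 911), and DESeq2 called 3 higher and 4 lower at ZT1, 24 and 6 at ZT13 and 10 and 3 in the interaction (edgeR 0 and 2, 13 and 3, 3 and 0).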
